A study of Homo sapiens with 12 samples.

Results

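VCaP-CT cells kept at 0.1 nM testosterone (T) and VCaP-T cells kept at 10 nM T are compared here, each in the medium that maintains the line, with 3 RNA-sequencing libraries of each line. Members were taken by the labels, and they make up 6 of the 12 libraries of the series. VCaP is an androgen-sensitive human prostate cancer cell line from a bone metastasis, and it carries a TMPRSS2-ERG fusion. VCaP-T was grown for months in medium with charcoal-stripped serum, which removes steroids, and 10 nM T. VCaP-CT was derived from VCaP-T over 10 months in the same medium at 0.1 nM T. Both had been in culture for 20 months when RNA was taken, VCaP-CT at passage 73 and VCaP-T at passage 84. The other 6 libraries hold the same lines with the testosterone levels exchanged for 48 h: VCaP-CT moved to 10 nM T and VCaP-T moved to 0.1 nM T.

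Line and testosterone level differ together in this comparison, and they cannot be told apart within these 6 libraries. Each line is also a single derivation. With the media exchanged, the same lines differ in the opposite testosterone direction in libraries of their own. For many of the genes named, though not all, the text also gives that difference (VCaP-CT moved to 10 nM T over VCaP-T moved to 0.1 nM T). A gene given without it may or may not keep its side. The labels do not say whether replicates were separate cultures, and p-values therefore measure the spread between these libraries, which may be technical. In bulk RNA, fewer cells of a kind and less RNA per cell cannot be told apart.

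Androgens, which are testosterone and the more potent dihydrotestosterone made from it, control transcription through response elements in DNA. They raise the transcription of genes such as the kallikreins, FKBP5 and TMPRSS2 and lower that of others. Prostate cancer cells that grow with little androgen are known for making their own androgen and, in some tumors, for neuroendocrine or gastrointestinal gene programs.

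Levels are given in normalized counts, which are the counted RNA fragments of a gene scaled by the TMM factors of edgeR. A gene was called when edgeR's quasi-likelihood test gave a Benjamini-Hochberg adjusted p under 0.01, the fold change was over 2 and the group medians differed by over 13 normalized counts. The 6 libraries held 32.6 to 40.8 M counted fragments, and log2 counts of replicates correlated at 0.992 to 0.994 in both lines. VCaP-T at 0.1 nM T for 48 h had 1 library that stood apart, replicate 2 (lowest correlation 0.962), which enters the exchanged comparison and the shared estimate of spread. Without it, 2645 genes were called in maintenance media instead of the 2428 given below, and 2424 were shared. Of the luminal prostate markers and VCaP genes listed, 15 of 15 were measured, with a summed level of 414000 to 418000 normalized counts in the VCaP-CT libraries and 595100 to 607800 in the VCaP-T libraries. The androgen-induced KLK2 and KLK3 carried this gap: the other 13 summed to 208600 to 209300 in the VCaP-CT libraries and 203000 to 210400 in the VCaP-T libraries.

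In their maintenance media, the lines differed in 2428 of 19162 genes tested (12.7%): VCaP-CT had more RNA of 1075 genes (5.61%) and less of 1353 (7.06%). The falls went further than the rises: 338 genes were over 4-fold higher and 593 over 4-fold lower, and 55 were over 32-fold higher and 93 over 32-fold lower. Protein-coding genes made up 1823 of the called genes (734 up and 1089 down), and long noncoding RNAs 375, 218 higher and 157 lower. The median log2 fold change of all genes tested was 0.00. In 69.0% of all genes tested, the 3 libraries of one line all lay beyond the 3 of the other.

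**Figure D1:**
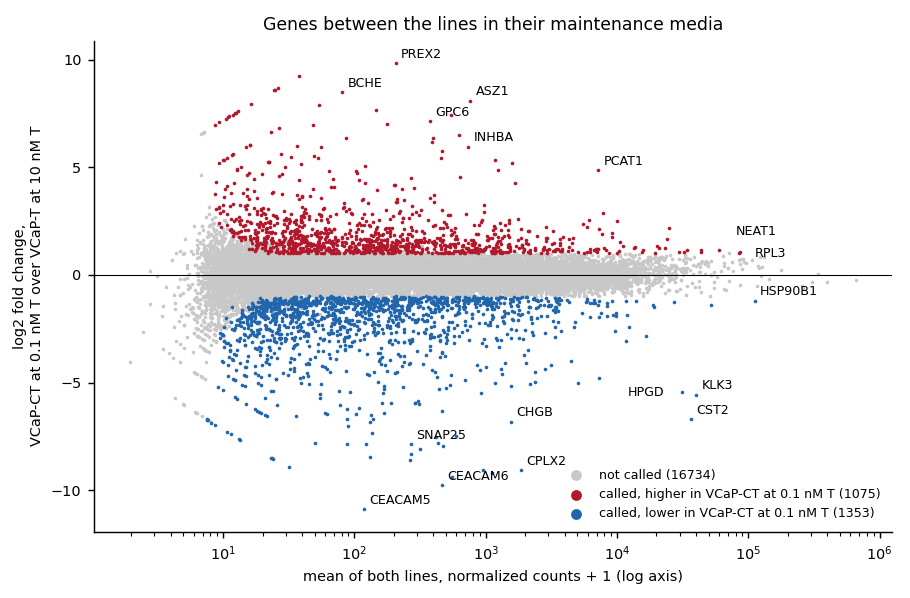
Log2 fold change of VCaP-CT at 0.1 nM T over VCaP-T at 10 nM T (y axis) against the mean normalized count of both lines plus 1 (x axis, log scale). Each point is a gene: 1075 called higher are red, 1353 called lower are blue and the rest gray. KLK3, HPGD and CST2 stand out as abundant genes with large falls.

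The best known androgen-induced gene, KLK3, which encodes prostate-specific antigen (PSA), showed a large fall. KLK3 (ENSG00000142515.14, chromosome 19, 50854915 to 50860764 of GRCh38) had 1652, 1659 and 1695 normalized counts in the VCaP-CT libraries, against 79924, 78616 and 77771 in the VCaP-T libraries. All VCaP-CT libraries were far below all VCaP-T libraries, with 47.2-fold more KLK3 in VCaP-T (log2 fold change -5.56, SE 0.13, adjusted p = 3.91e-11, edgeR). With the media exchanged, KLK3 averaged 14645 ± 561 in VCaP-CT at 10 nM T and 40912 ± 7242 in VCaP-T at 0.1 nM T (SD, n = 3 each), so it stayed lower in VCaP-CT (log2 fold change -1.48, adjusted p = 3.90e-07, edgeR). The neighboring kallikrein KLK2, also androgen-induced, averaged 205050 ± 2178 in VCaP-CT at 0.1 nM T and 314260 ± 3313 in VCaP-T at 10 nM T (SD, n = 3 each), a log2 fold change of -0.62 that misses the 2-fold threshold.

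The promoters of KLK3 and of CEACAM5 and CEACAM6, adhesion genes that were almost silent in VCaP-CT, are printed because these genes show the comparison at its clearest. Each runs from upstream of the gene's start to just past it in RefSeq (build GRCh38, plus strand): KLK3 at chr19:50854665-50854964, CEACAM5 at chr19:41708376-41708675 and CEACAM6 at chr19:41755280-41755579. Capitals mark the half-site AGAACA of the androgen response element, searched with its reverse complement TGTTCT.
KLK3: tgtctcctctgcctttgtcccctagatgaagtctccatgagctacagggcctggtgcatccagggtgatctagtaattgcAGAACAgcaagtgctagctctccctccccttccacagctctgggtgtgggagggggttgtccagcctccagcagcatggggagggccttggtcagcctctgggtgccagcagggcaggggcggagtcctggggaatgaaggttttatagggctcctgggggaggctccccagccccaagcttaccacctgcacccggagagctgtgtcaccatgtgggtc
CEACAM5: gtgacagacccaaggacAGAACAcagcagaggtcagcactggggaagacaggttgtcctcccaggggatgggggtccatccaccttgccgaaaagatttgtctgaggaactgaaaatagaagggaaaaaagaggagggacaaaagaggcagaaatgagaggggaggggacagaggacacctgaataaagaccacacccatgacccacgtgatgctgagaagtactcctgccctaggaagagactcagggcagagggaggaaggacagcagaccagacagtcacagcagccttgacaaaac
CEACAM6: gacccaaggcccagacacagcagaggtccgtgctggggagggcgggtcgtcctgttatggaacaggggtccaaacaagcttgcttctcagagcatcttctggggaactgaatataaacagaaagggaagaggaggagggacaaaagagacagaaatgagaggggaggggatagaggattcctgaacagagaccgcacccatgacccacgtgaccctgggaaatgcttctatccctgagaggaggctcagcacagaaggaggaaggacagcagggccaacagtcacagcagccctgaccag
KLK3 holds the half-site 170 bases before the start and CEACAM5 233 bases before it, and CEACAM6 holds neither form in this window. The half-site occurs in 14.9% of all 27305 promoters of the table, and in 9.46% of the 12051 promoters of genes tested here. A match is a description of letters only.

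GATA2, a zinc finger transcription factor that opens chromatin, rose in VCaP-CT in both pairs of media, with 14040 ± 408 normalized counts in VCaP-CT at 0.1 nM T and 4182 ± 457 in VCaP-T at 10 nM T (SD, n = 3 each, log2 fold change 1.75, and 0.81 with the media exchanged).

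PGR, the progesterone receptor, had 88.1, 87.1 and 95.2 normalized counts in the VCaP-CT libraries, against 7.43, 3.80 and 5.49 in the VCaP-T libraries, and the groups did not overlap (log2 fold change 4.0, SE 0.36, adjusted p = 2.92e-06, edgeR). Of 29 measured steroid receptors and cofactors, 1 fell, NR3C1 (3.45%, beside 7.06% over all genes tested). Without VCaP-T replicate 2 at 0.1 nM T, 2 fell. NR3C1, the glucocorticoid receptor, had 38.5, 60.6 and 49.1 normalized counts in the VCaP-CT libraries, against 673, 625 and 657 in the VCaP-T libraries. It was thus 13.2-fold higher in VCaP-T, and it was lower in VCaP-CT with the media exchanged as well (log2 fold change -3.72 in maintenance media and -3.21 exchanged, adjusted p = 1.41e-08 and 3.28e-08, edgeR). The pioneer factor FOXA1 ranged from 22670 to 23490 in VCaP-CT and from 17570 to 18040 in VCaP-T, and HOXB13, a prostate homeobox factor, from 14860 to 15620 in VCaP-CT and from 11440 to 13530 in VCaP-T, neither of them called.

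Of the androgen-induced genes, more were called lower than higher in VCaP-CT at 0.1 nM T, and most were not called. Of 47 measured, 13 fell (27.7%) and 1 rose, TSC22D3, beside 7.06% lower and 5.61% higher over all genes tested. The list's median log2 fold change was -0.41. STEAP4, a metalloreductase of the cell surface, had 166, 134 and 142 normalized counts in the VCaP-CT libraries, against 4455, 4606 and 4694 in the VCaP-T libraries. Its libraries were widely apart (log2 fold change -4.95, SE 0.14, adjusted p = 2.12e-10, edgeR), and with the media exchanged STEAP4 was higher in VCaP-CT by 3.63. TMPRSS2, a membrane protease, averaged 3522 ± 131 in VCaP-CT and 13287 ± 144 in VCaP-T, and the steroid receptor cochaperone FKBP5 averaged 5116 ± 69.2 in VCaP-CT and 18793 ± 633 in VCaP-T (SD, n = 3 each).

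Most of the fallen androgen-induced genes turned round when the media were exchanged. TMPRSS2, FKBP5, STEAP4, STK39, CENPN, ERRFI1, MAF, ALDH1A3 and SLC38A4 were higher in VCaP-CT at 10 nM T than in VCaP-T at 0.1 nM T at an adjusted p under 0.01 (edgeR). KLK3 kept its sign, and ABCC4, F5 and KLK15 passed in neither direction. F5, coagulation factor V, had an exchanged log2 fold change of -0.76, and of -1.03 without replicate 2 of VCaP-T at 0.1 nM T, which passed (adjusted p = 4.21e-10, edgeR). Over the list, the median log2 fold change with the media exchanged was 0.98, with 22 genes called higher and 2 lower.

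Androgen-repressed genes went the opposite way: of 20 measured, 9 rose in VCaP-CT (45.0%, beside 5.61% over all genes tested) and 3 fell (15.0%, beside 7.06%). The list's median log2 fold change was 1.10. FOLH1, which encodes prostate-specific membrane antigen (PSMA), had 774, 798 and 885 normalized counts in the VCaP-CT libraries, against 159, 155 and 135 in the VCaP-T libraries. It was 5.46-fold higher in VCaP-CT, and with the media exchanged it averaged 49.4 ± 10.3 in VCaP-CT at 10 nM T and 1654 ± 91.1 in VCaP-T at 0.1 nM T (SD, n = 3 each, log2 fold change -5.06). IGFBP3, a carrier of insulin-like growth factors, and TRIB1, a pseudokinase, likewise rose in VCaP-CT in maintenance media (log2 fold change 1.88 and 1.36) and were lower in VCaP-CT with the media exchanged (-3.70 and -1.29). LRRN1, a membrane protein with leucine-rich repeats, had 862, 877 and 985 in VCaP-CT libraries, against 13.8, 12.4 and 22.9 in VCaP-T libraries, and its log2 fold change was -0.45 with the media exchanged (adjusted p = 0.0741, edgeR). DDC, LOX and PEG3 were the 3 that fell.

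**Figure D2:**
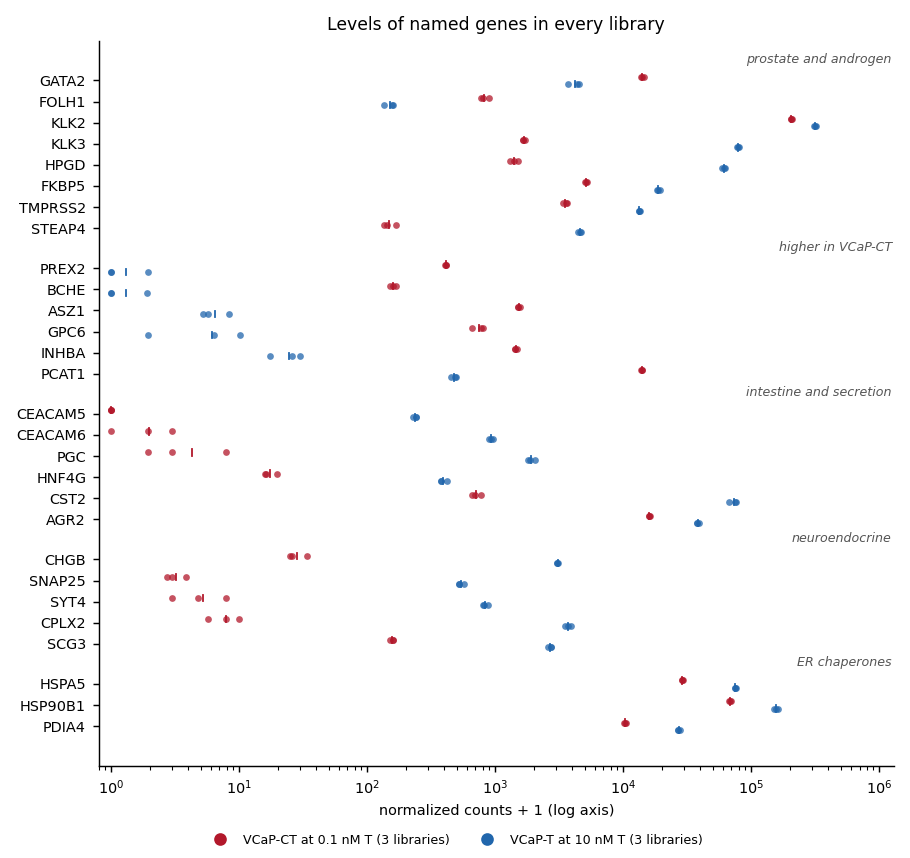
Normalized counts plus 1 (x axis, log scale) of 28 named genes in the 3 VCaP-CT libraries at 0.1 nM T (red) and the 3 VCaP-T libraries at 10 nM T (blue), with each line's mean as a short bar. The libraries of one line lie closely together beside the distance between the lines, for GATA2 above and for KLK3, CST2 and CHGB below VCaP-T.

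Enzymes that make and inactivate androgens were mostly lower or not called in VCaP-CT. Of 28 measured, 8 fell (28.6%) and 1 rose (3.57%), beside 7.06% lower and 5.61% higher over all genes tested. The riser was HSD17B6, a hydroxysteroid dehydrogenase that can form dihydrotestosterone from androstanediol. It had 926 ± 40.8 normalized counts in VCaP-CT and 290 ± 10.5 in VCaP-T (SD, n = 3 each, log2 fold change 1.67, adjusted p = 4.50e-06, edgeR). Its log2 fold change with the media exchanged was -0.24 and did not pass (adjusted p = 0.222, edgeR). AKR1C3, which reduces androstenedione to testosterone, fell with 63.8 ± 6.56 in VCaP-CT and 162 ± 19.3 in VCaP-T (SD, n = 3 each, log2 fold change -1.34), and its neighbors AKR1C1 and AKR1C2 fell by 2.91 and 1.88 on the log2 scale. These 3 genes are near-identical copies, and fragments that fit several of them were not counted. DHRS9, a retinol and steroid dehydrogenase, had 4.17 ± 2.67 in VCaP-CT and 180 ± 14.7 in VCaP-T (SD, n = 3 each). UGT2B4 and UGT2B11, which couple steroids or bile acids to glucuronic acid, fell too, and with the media exchanged both were higher in VCaP-CT. SRD5A1, a 5-alpha reductase, had a log2 fold change of -1.03, which no longer passed the 2-fold threshold without VCaP-T replicate 3 (-0.99).

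HPGD and CST2 were, with KLK3 and 2 endoplasmic reticulum chaperones (HSPA5 and HSP90B1), the 5 most abundant genes that fell. HPGD, which breaks down prostaglandins (ENSG00000164120.13, chromosome 4, 174490177 to 174523154), had 1296, 1395 and 1498 normalized counts in the VCaP-CT libraries, against 59334, 61496 and 62680 in the VCaP-T libraries. CST2, a secreted cystatin that inhibits cysteine proteases (chromosome 20, 23823769 to 23826731), had 771, 688 and 656 in the VCaP-CT libraries, against 76175, 74561 and 67440 in the VCaP-T libraries. Both were lower in VCaP-CT in every pair of libraries, HPGD by 43.8-fold and CST2 by 103-fold, and both were lower with the media exchanged (log2 fold change -2.61 and -6.12). Per length of transcript, CST2 had 27.0 fragments per kilobase and per M fragments in VCaP-CT and 2825 in VCaP-T, and KLK3 had 10.3 in VCaP-CT and 493 in VCaP-T. CST2's neighbors CST1, CST4 and CST5 fell as well, by 4.09, 3.83 and 6.68 on the log2 scale. Cystatin genes of this cluster are near-identical, so how fragments were shared among them is uncertain.

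Some genes were expressed in one line and almost silent in the other. With a mean under 5 normalized counts in one line and over 100 in the other, 33 genes were off in VCaP-CT and 9 were on in VCaP-CT but not in VCaP-T. CEACAM5, an adhesion molecule of intestinal epithelium and a tumor antigen (chromosome 19, 41708585 to 41729798), had no count in the 3 VCaP-CT libraries and 240, 226 and 242 normalized counts in the VCaP-T libraries. It was at least 78.5-fold lower in VCaP-CT when set against 3 counts per library. Its neighbor CEACAM6 had 0, 0.947 and 2.00 in the VCaP-CT libraries, against 899, 919 and 964 in the VCaP-T libraries, a ratio of 943 with a 95% counting interval of 341 to 4840. Both are members of a family of close copies.

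CPLX2, a complexin of the synapse just above the limit of that rule, had 6.85, 4.73 and 9.02 normalized counts in the VCaP-CT libraries, against 3875, 3732 and 3513 in the VCaP-T libraries (log2 fold change -9.06, SE 0.23, adjusted p = 9.10e-11, edgeR). XKR7, a membrane protein of the XK family, had 7.70, 1.89 and 1.00 in VCaP-CT, against 2207, 2189 and 2316 in VCaP-T. The differences were about as large with the media exchanged, at -9.39 for CPLX2 and -9.21 for XKR7 on the log2 scale. DLGAP1, a scaffold protein of synapses, and GPR158, an orphan receptor of neurons, fell by 9.37 and 8.32. PGC, the pepsinogen progastricsin, had 6.85, 0.947 and 2.00 in VCaP-CT libraries, against 2055, 1861 and 1806 in VCaP-T libraries, and differed less with the media exchanged, at 255 ± 50.1 in VCaP-CT at 10 nM T and 510 ± 61.8 in VCaP-T at 0.1 nM T (SD, n = 3 each).

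Of the 33 genes off in VCaP-CT, 29 were also lower in VCaP-CT with the media exchanged at an adjusted p under 0.01 (edgeR), 2 were higher and 2 passed in neither direction. ORM2, which encodes a plasma glycoprotein of the acute phase, was one of those that turned round, at 105 ± 16.6 in VCaP-CT at 10 nM T and 27.2 ± 9.31 in VCaP-T at 0.1 nM T (SD, n = 3 each). SNAI2, a repressor of epithelial genes, had 2.57, 3.79 and 0 in VCaP-CT libraries at 0.1 nM T, against 209, 189 and 202 in VCaP-T libraries at 10 nM T. Its log2 fold change was -0.64 with the media exchanged (adjusted p = 0.0254, edgeR), and -0.62 without replicate 2 of VCaP-T at 0.1 nM T (adjusted p = 0.00725, edgeR).

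Among the 9 genes on in VCaP-CT, PREX2, an activator of the GTPase RAC, had the largest log2 rise of the called genes over 100 normalized counts. PREX2 (chromosome 8, 67952118 to 68237030) had 404, 413 and 414 normalized counts in the VCaP-CT libraries, against 0, 0.951 and 0 in the VCaP-T libraries, and the VCaP-T value rests on 1 count. The ratio was 1294 with a 95% counting interval of 227 to 50000. BCHE, which encodes butyrylcholinesterase, had 150, 168 and 159 in VCaP-CT, against 0, 0 and 0.915 in VCaP-T, a ratio of 521 (interval 87.4 to 19400, again on 1 count). These intervals cover counting error only. Both genes were higher in VCaP-CT with the media exchanged. CD200, an immune checkpoint ligand, averaged 106 ± 26.4 in VCaP-CT at 0.1 nM T and 0.305 ± 0.528 in VCaP-T at 10 nM T, and its exchanged log2 fold change of 1.44 did not pass (adjusted p = 0.134, and 0.0557 at 2.24 without replicate 2 of VCaP-T at 0.1 nM T, edgeR). PCDH19 and the zinc finger repressor KLF8 were also on, and of the 9 genes, 4 were higher with the media exchanged, 5 passed in neither direction and 0 were lower.

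ASZ1, a germ cell gene that protects against transposons, was nearly silent in VCaP-T without meeting that rule. ASZ1 (chromosome 7, 117363222 to 117428123) had 1514, 1550 and 1513 normalized counts in the VCaP-CT libraries, against 4.25, 4.75 and 7.32 in the VCaP-T libraries. The difference depended on the media, since ASZ1 averaged 67.5 ± 11.2 in VCaP-CT at 10 nM T and 66.1 ± 22.3 in VCaP-T at 0.1 nM T (SD, n = 3 each, adjusted p of the change in difference = 1.57e-08, edgeR). Of 21 measured germ cell genes, 3 rose (14.3%), ASZ1, MAGEC2 and TDRD6, and 6 fell (28.6%), beside 5.61% and 7.06% over all genes tested. LIN28B, an RNA-binding protein of stem cells, fell with 0.619 ± 0.541 in VCaP-CT and 68.8 ± 3.30 in VCaP-T, and the cancer-testis antigens MAGEA3 and MAGEA6, near-identical copies, fell by 4.09 and 4.48 on the log2 scale.

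Of the lists examined, that of gastrointestinal genes had the largest share of falls. Of 27 measured, 18 fell in VCaP-CT (66.7%) and 2 rose (7.41%), beside 7.06% and 5.61% over all genes tested. The list's median log2 fold change was -2.19. The transcription factor HNF4G, which drives a gastrointestinal program in prostate cancer, had 18.8, 15.1 and 15.0 normalized counts in the VCaP-CT libraries, against 373, 416 and 378 in the VCaP-T libraries (log2 fold change -4.56, adjusted p = 1.54e-08, edgeR). The secreted lectin REG4, the cadherin CDH17, the mucin MUC2 and the trefoil factor TFF1 fell by 3.30, 3.16, 6.83 and 2.19. AGR2, a disulfide isomerase of mucus cells, fell less, with 15838, 16267 and 15820 in VCaP-CT, against 37878, 37913 and 39040 in VCaP-T, and it alone of the 18 was higher in VCaP-CT with the media exchanged at an adjusted p under 0.01 (edgeR). CDX2, a transcription factor of the gut, was among those that rose. In exchanged media, 20 of the 27 were called lower and 2 higher in VCaP-CT.

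Neuroendocrine genes fell in VCaP-CT together: 13 of 23 measured (56.5%), while 3 rose, and the median log2 fold change was -1.69. CHGB, a granin of secretory granules (chromosome 20, 5911430 to 5925361), had 24.8, 33.1 and 24.0 normalized counts in the VCaP-CT libraries, against 3060, 3103 and 3057 in the VCaP-T libraries. It was 112-fold higher in VCaP-T (log2 fold change -6.81, SE 0.15, adjusted p = 2.29e-11, edgeR), and -7.94 on the log2 scale with the media exchanged. SNAP25, of the vesicle fusion machinery, had 1.71, 2.84 and 2.00 in VCaP-CT, against 521, 567 and 520 in VCaP-T. SYT4, SCG3 and SYP, also of vesicles and granules, fell by 7.54, 4.10 and 2.32, and SRRM4, a neural splicing factor, NCAM1 and SOX2 fell too. ENO2, PEG10 and SYT1 rose, ENO2 with 1562 ± 34.6 in VCaP-CT and 502 ± 29.4 in VCaP-T (SD, n = 3 each). Of 24 measured neurotransmitter receptors, 7 fell (29.2%) and 1 rose (4.17%). CHRNB2, a nicotinic receptor subunit, had 125 ± 18.7 in VCaP-CT and 4251 ± 106 in VCaP-T (SD, n = 3 each), and the riser was the glutamate receptor GRIA2.

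**Figure D3:**
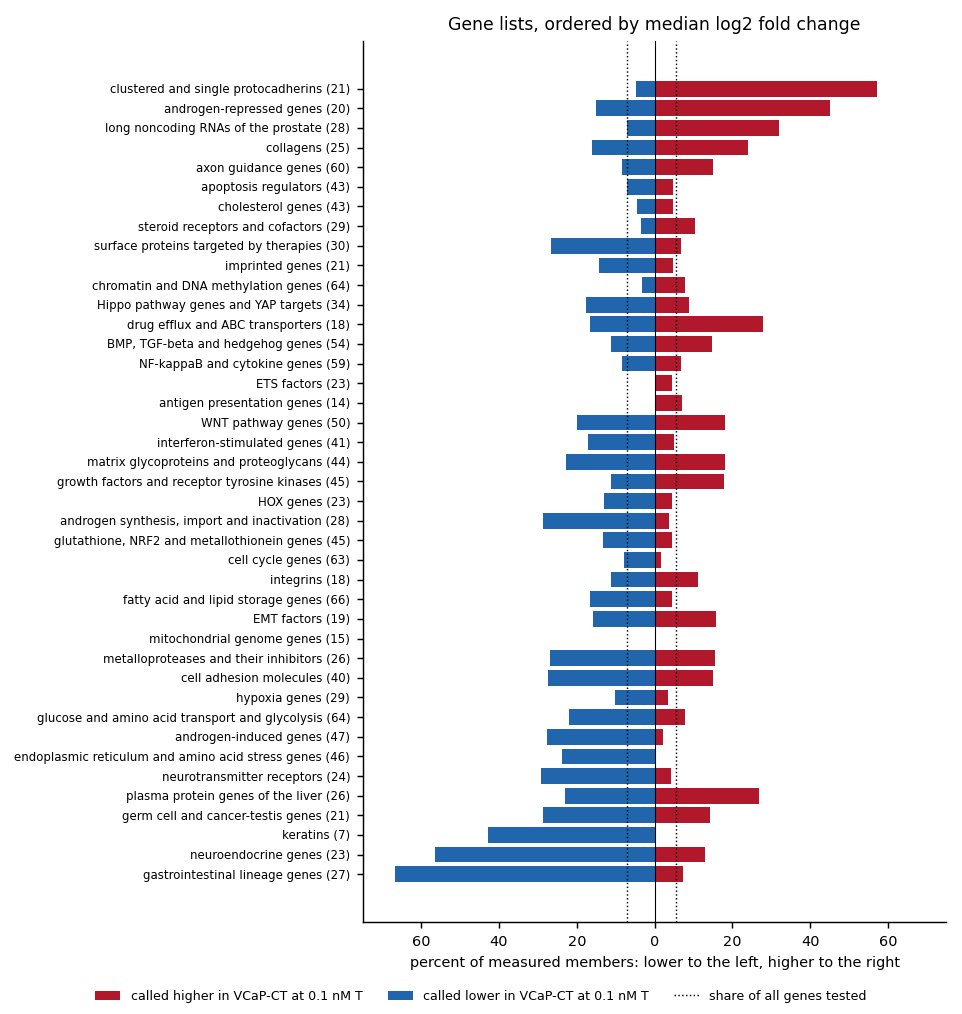
Percent of each list's measured members that were called lower (blue, to the left) or higher (red, to the right) in VCaP-CT at 0.1 nM T than in VCaP-T at 10 nM T; the number of measured members is in parentheses and dotted lines give the share over all genes tested (7.06% lower, 5.61% higher). Gastrointestinal and neuroendocrine genes reach 66.7% and 56.5% lower, and protocadherins 57.1% higher.

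Protocadherins, adhesion proteins whose clustered genes are chosen singly or in sets by each neuron, had the largest share of rises outside the short lists of cell type markers. Of 21 measured, 12 rose in VCaP-CT (57.1%) and 1 fell, PCDH8 (4.76%), beside 5.61% and 7.06% over all genes tested. The list's median log2 fold change was 1.35. PCDHB14 had 762, 789 and 770 normalized counts in the VCaP-CT libraries, against 171, 177 and 161 in the VCaP-T libraries (log2 fold change 2.19, SE 0.09, adjusted p = 4.28e-09, edgeR). All VCaP-CT libraries were above all VCaP-T libraries. The beta cluster genes PCDHB16, PCDHB9, PCDHB10, PCDHB11, PCDHB12, PCDHB13 and PCDHB14 form a run of 7 called neighbors on chromosome 5 (141181399 to 141227759), with log2 fold changes of 1.48 to 2.64. In exchanged media, 5 of the 7 were higher in VCaP-CT at an adjusted p under 0.01 (edgeR). These genes are similar in sequence, and up to 24.9% of an exon length in the run is shared with another gene.

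Other adhesion genes fell more often than they rose: 11 of 40 measured were lower (27.5%) and 6 higher (15.0%). Over all genes tested, 7.06% were lower and 5.61% higher. CEACAM1, CDH17, CDH3, the neural adhesion molecules NRCAM, NCAM1 and L1CAM, and CNTNAP2 were among those that fell, NRCAM with 265 ± 17.7 in VCaP-CT and 5414 ± 145 in VCaP-T (SD, n = 3 each). ALCAM, an adhesion molecule of activated leukocytes, rose with 4744 ± 149 normalized counts in VCaP-CT and 1019 ± 36.4 in VCaP-T (SD, n = 3 each).

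Keratins of the list examined fell where they were called, 3 of 7 measured (42.9%, beside 7.06% over all genes tested), and none rose. KRT15, a basal keratin, had 0.856, 1.89 and 2.00 normalized counts in VCaP-CT libraries, against 283, 277 and 253 in VCaP-T libraries. KRT19 averaged 433 ± 34.0 in VCaP-CT and 3399 ± 384 in VCaP-T (SD, n = 3 each). The luminal keratins KRT8 and KRT18 had log2 fold changes of -0.85 and -0.79 and were not called. KRT36, which was not on that list, was called lower too. With KRT15, KRT19 and KRT14 it formed a run of 4 neighbors on chromosome 17 (41486136 to 41586921). The basal markers TP63 and KRT5 were at or near 0 in both lines, at most 9.41 and 2.00 in VCaP-CT and 2.85 and 0 in VCaP-T. The 7 listed basal markers summed to 2295 to 2370 in VCaP-CT libraries and 4309 to 4509 in VCaP-T libraries. DST made up most of this sum, at 2198 to 2240 in VCaP-CT and 3803 to 4062 in VCaP-T. COL17A1 went the other way, at 44.1 to 60.8 in VCaP-CT and 26.6 to 29.3 in VCaP-T. Neither DST nor COL17A1 was called.

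Matrix genes went in both directions. Of 44 measured matrix glycoproteins and proteoglycans, 8 rose (18.2%) and 10 fell (22.7%), beside 5.61% and 7.06% over all genes tested. LUM, a proteoglycan of collagen fibrils, had 827, 901 and 931 normalized counts in the VCaP-CT libraries and at most 27.4 in the VCaP-T libraries. LUM thus rose by 5.41 on the log2 scale (adjusted p = 1.29e-09, edgeR), and it was lower in VCaP-CT with the media exchanged (-2.19). GPC6, a glypican of the cell surface, averaged 745 ± 74.9 in VCaP-CT and 5.14 ± 4.10 in VCaP-T, and the matrix Gla protein MGP 3152 ± 54.2 in VCaP-CT and 166 ± 5.44 in VCaP-T (SD, n = 3 each). Of 25 measured collagens, 6 rose (24.0%) and 4 fell (16.0%): COL5A2 rose by 4.01 on the log2 scale and COL1A1 fell by 2.06. Of 26 metalloproteases and inhibitors, 4 rose (15.4%) and 7 fell (26.9%). ADAMTS3, a procollagen protease, was among those that rose, at 2295 ± 75.2 in VCaP-CT and 56.0 ± 4.10 in VCaP-T (SD, n = 3 each).

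LUM and COL1A1 are also markers of fibroblasts, and the 12 listed fibroblast and smooth muscle markers summed to 1438 to 1621 normalized counts in the VCaP-CT libraries and 585.6 to 679.4 in the VCaP-T libraries. LUM and TAGLN had the highest levels in VCaP-CT. TAGLN, an actin-binding protein of smooth muscle, ranged from 436 to 509 in VCaP-CT and from 329 to 358 in VCaP-T, and PDGFRB, a receptor for platelet-derived growth factor, from 86.1 to 101.0 in VCaP-CT and from 15.2 to 26.5 in VCaP-T. COL1A1 was lower in VCaP-CT, at 46.2 to 52.1, against 172 to 242 in VCaP-T. MYH11 had no count in the 6 libraries, and COL1A2 and DCN reached at most 1.89 and 4.01 in VCaP-CT and 0 in VCaP-T. The part of such cells in these results was not tested.

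Genes of the liver's plasma proteins were split, with 7 of 26 measured higher (26.9%) and 6 lower (23.1%), beside 5.61% and 7.06% over all genes tested. ALB, albumin, had 1669, 1767 and 1704 normalized counts in the VCaP-CT libraries, against 211, 232 and 233 in the VCaP-T libraries (log2 fold change 2.92, SE 0.11, adjusted p = 1.80e-09, edgeR). The libraries did not overlap, and with the media exchanged ALB was lower in VCaP-CT (-2.08). TTR, a carrier of thyroid hormone, and AFP, alpha-fetoprotein, whose gene neighbors ALB, rose by 2.28 and 2.82. The 10 listed hepatocyte markers summed to 2329 to 2452 in VCaP-CT libraries and 414.0 to 441.2 in VCaP-T libraries, of which ALB was the greater part. FGB had no count and APOA1 at most 4.01 in VCaP-CT and 2.75 in VCaP-T. SERPINA1, also on that list, fell, at 15.0 to 19.9 in VCaP-CT and 38.2 to 76 in VCaP-T. LYZ, lysozyme, made up most of the blood cell markers, at 120 ± 7.35 in VCaP-CT and 2512 ± 167 in VCaP-T (SD, n = 3 each, 34.0% of its exon length shared with another gene). CD14 of the same list rose, at 19 to 27 in VCaP-CT and 4.6 to 11 in VCaP-T. It lost its call without VCaP-T replicate 1 or 3 or VCaP-CT replicate 1 or 2. PTPRC, the leukocyte antigen CD45, reached at most 0.947 in VCaP-CT and 0 in VCaP-T. Of the 9 endothelial markers, VWF fell, EMCN rose (2 rose without VCaP-CT replicate 3) and KDR had no count.

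Endoplasmic reticulum and amino acid stress genes fell without a riser: 11 of 46 measured (23.9%), beside 7.06% over all genes tested. The list's median log2 fold change was -0.49. HSPA5, the chaperone BiP, had 28547, 29080 and 28751 normalized counts in the VCaP-CT libraries, against 75860, 74542 and 74410 in the VCaP-T libraries (log2 fold change -1.38, SE 0.12, adjusted p = 1.73e-06, edgeR). HSP90B1, the chaperone GRP94, had 66753, 69332 and 68318 in VCaP-CT, against 151430, 154560 and 161710 in VCaP-T. Every VCaP-CT library was below every VCaP-T library for both. The disulfide isomerases PDIA4 and PDIA6, the cochaperone DNAJC3 and the secreted factor MANF fell by 1.40, 1.21, 1.88 and 1.20, and ATF5, a stress transcription factor, by 3.08 (23.7% of its exon length, and 25.2% of that of PDIA6, is shared with other genes). Of the 11 genes, 4 were lower in VCaP-CT with the media exchanged too, at log2 fold changes of -1.70 (ATF5), -1.19 (GDF15), -0.84 (DDIT3) and -0.37 (DNAJC3), and 2 were higher, DDIT4 at 0.94 and VLDLR at 0.90. In exchanged media, the other 5, HSPA5, HSP90B1, PDIA4, PDIA6 and MANF, had log2 fold changes of -0.12, -0.27, -0.09, -0.13 and -0.07 and did not pass (adjusted p = 0.407, 0.0780, 0.338, 0.0985 and 0.792, edgeR). Without replicate 2 of VCaP-T at 0.1 nM T, MANF passed at 0.33 (adjusted p = 1.43e-05, edgeR) and the other 4 did not.

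Genes that code for ribosomal proteins, grouped after RPL3 and RPL15 were seen among the most abundant called genes, leaned the other way. RPL3 had 119560, 117510 and 115720 normalized counts in the VCaP-CT libraries, against 58026, 56201 and 54302 in the VCaP-T libraries (log2 fold change 1.07, SE 0.12, adjusted p = 1.62e-05, edgeR). Of 79 ribosomal protein genes measured, 5 were called higher and 0 lower, a share of rises close to the 5.61% over all genes tested. The lean lay in the signs: 74 of the 79 had a positive log2 fold change, with a median of 0.59. With the media exchanged the median was -0.26, and 0.16 without replicate 2 of VCaP-T at 0.1 nM T. RPL3 and RPL15 had exchanged log2 fold changes of 0.01 and 0.24 that did not pass (adjusted p = 0.953 and 0.188), and 0.18 and 0.50 that passed without that library (adjusted p = 0.00325 and 1.66e-09, edgeR). Scaling by RLE or DESeq2 gave medians of 0.58 each. MCCC2, a mitochondrial carboxylase subunit of leucine breakdown, was another of the most abundant genes that rose, with 82610 ± 944 in VCaP-CT and 37651 ± 1507 in VCaP-T (SD, n = 3 each).

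Genes of glucose and amino acid transport and of fatty acids fell more often than they rose, while cholesterol genes were even. Over all genes tested, 7.06% fell and 5.61% rose. Of 64 measured genes of glucose and amino acid transport and glycolysis, 14 fell (21.9%) and 5 rose. The glucose transporter SLC2A3 averaged 44.9 ± 4.46 normalized counts in VCaP-CT and 365 ± 25.9 in VCaP-T, and hexokinase HK2 669 ± 26.3 in VCaP-CT and 2294 ± 66.3 in VCaP-T (SD, n = 3 each). SLC2A3 was higher in VCaP-CT with the media exchanged (2.75) and HK2 had a log2 fold change of -0.24 (adjusted p = 0.106, edgeR), or -0.36 without replicate 2 of VCaP-T at 0.1 nM T (adjusted p = 9.04e-05, edgeR). Of 66 fatty acid and lipid storage genes, 11 fell (16.7%) and 3 rose (4.55%). The largest fall was that of PPARG, the lipid-sensing nuclear receptor, at 9.61 ± 0.72 in VCaP-CT and 236 ± 8.53 in VCaP-T. Its coactivator PPARGC1A fell by 3.97. Of 43 cholesterol genes, 2 rose and 2 fell (4.65% each), with a median log2 fold change of 0.19. With the media exchanged, 21 were called higher and 2 lower. ODC1, the first enzyme of polyamine synthesis, had 8328, 8548 and 8225 in VCaP-CT, against 18985, 19440 and 20123 in VCaP-T. ODC1 was higher in VCaP-CT with the media exchanged (log2 fold change 1.62).

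Of 45 genes of glutathione, NRF2 and metallothioneins, 6 fell (13.3%) and 2 rose (4.44%), beside 7.06% lower and 5.61% higher over all genes tested. The glutathione peroxidase GPX3 had 2810, 2613 and 2625 normalized counts in the VCaP-CT libraries, against 16902, 16548 and 16147 in the VCaP-T libraries. GPX2 and the quinone reductase NQO1 fell by 3.51 and 2.69, and all 3 were lower in VCaP-CT with the media exchanged. ME1, the malic enzyme that supplies NADPH, went the other way, with 45.4, 48.3 and 50.1 in VCaP-CT and no count in VCaP-T, at least 15.0-fold higher against 3 counts per library.

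Genes of signals between cells included some of the clearest rises. INHBA, a subunit of activin, had 1431, 1418 and 1475 normalized counts in the VCaP-CT libraries, against 28.7, 24.7 and 16.5 in the VCaP-T libraries (log2 fold change 5.96, SE 0.17, adjusted p = 2.12e-10, edgeR). WNT5A, a noncanonical WNT ligand, averaged 568 ± 15.9 in VCaP-CT and 71.5 ± 5.17 in VCaP-T, and IHH, a hedgehog ligand, 2157 ± 53.7 in VCaP-CT and 403 ± 59.2 in VCaP-T (SD, n = 3 each). STAT6, which carries interleukin 4 signals, rose by 3.26. INHBA, WNT5A and STAT6 were higher in VCaP-CT with the media exchanged too (log2 fold change 2.04, 1.25 and 1.82), while IHH was lower (-0.52). Of 50 WNT genes, 9 rose (18.0%) and 10 fell (20.0%), of 54 BMP, TGF-beta and hedgehog genes 8 rose (14.8%) and 6 fell (11.1%), and of 60 axon guidance genes 9 rose (15.0%) and 5 fell (8.33%). Of 59 NF-kappaB and cytokine genes, 4 rose (6.78%) and 5 fell (8.47%), close to the 5.61% and 7.06% over all genes tested. Of 41 interferon-stimulated genes, 2 rose (4.88%) and 7 fell (17.1%), and of 14 antigen presentation genes, 1 rose (7.14%) and 0 fell.

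Among growth factors and receptor tyrosine kinases, 8 of 45 rose (17.8%) and 5 fell (11.1%), beside 5.61% higher and 7.06% lower over all genes tested. EGFR averaged 1413 ± 59.9 in VCaP-CT and 3762 ± 63.7 in VCaP-T, and ERBB3 2517 ± 40.6 in VCaP-CT and 6077 ± 143 in VCaP-T (SD, n = 3 each), both lower. IGFBP2, an IGF carrier, rose by 2.20. Of 34 Hippo pathway genes and YAP targets, 3 rose (8.82%, and 1 gene without VCaP-T replicate 2 or 3) and 6 fell (17.6%). The coactivators YAP1 and WWTR1 fell by 1.34 and 1.81. YAP1 was lower in VCaP-CT with the media exchanged too (-1.35), while WWTR1 was higher (0.97). Of 30 surface proteins that therapies target, 8 fell (26.7%) and 2 rose, FOLH1 and NECTIN4 (4 without VCaP-T replicate 1). TMEFF2, a transmembrane protein of the prostate, had 360, 289 and 325 in the VCaP-CT libraries, against 5983, 6016 and 5850 in the VCaP-T libraries.

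Of 63 cell cycle genes measured, 5 fell (7.94%) and 1 rose (1.59%), beside 7.06% lower and 5.61% higher over all genes tested. CDK6, a G1 kinase, averaged 17.5 ± 2.71 normalized counts in VCaP-CT and 149 ± 17.7 in VCaP-T, and RRM2, of ribonucleotide reductase, 1133 ± 43.2 in VCaP-CT and 3223 ± 168 in VCaP-T (SD, n = 3 each). CDKN1B, the kinase inhibitor p27, rose with 2733 ± 38.6 in VCaP-CT and 1030 ± 7.21 in VCaP-T (SD, n = 3 each). The kinase inhibitors CDKN2A and CDKN2B fell, as did the cyclin CCNE1. CCNE1 missed the 2-fold threshold without VCaP-CT replicate 1 (log2 fold change -0.995). MKI67, a proliferation marker, averaged 16463 ± 140 in VCaP-CT and 21023 ± 520 in VCaP-T and did not pass (log2 fold change -0.35, adjusted p = 0.354, edgeR). Of 43 apoptosis regulators, 2 rose (4.65%), BCL2 and BIRC3, and 3 fell (6.98%). BCL2 was higher in VCaP-CT with the media exchanged too (log2 fold change 1.94), while BIRC3 was lower (-1.07). Of 64 chromatin genes, 5 rose and 2 fell, of 23 HOX genes 1 rose and 3 fell, and of 15 mitochondrial genome genes 0 were called.

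Of 28 long noncoding RNAs of the prostate measured, 9 rose in VCaP-CT (32.1%, beside 5.61% over all genes tested). PCAT18 and SCHLAP1 fell, 2 of the 28 (7.14%, close to the 7.06% over all genes tested). Without any single one of VCaP-T replicates 2 and 3 and the VCaP-CT replicates, 1 fell. PCAT1, from the region beside MYC (chromosome 8, 126556323 to 127419050), had 14067, 14046 and 13736 normalized counts in the VCaP-CT libraries, against 452, 487 and 489 in the VCaP-T libraries. It was 29.3-fold higher in VCaP-CT (log2 fold change 4.87, SE 0.08, adjusted p = 3.78e-12, edgeR), and 3.27 on the log2 scale with the media exchanged. PCAT14 averaged 32495 ± 857 in VCaP-CT and 13611 ± 559 in VCaP-T (SD, n = 3 each). NEAT1, the scaffold of paraspeckles and the most abundant of them, averaged 113940 ± 5074 in VCaP-CT and 56815 ± 2514 in VCaP-T (SD, n = 3 each), a log2 fold change of 1.00 that lay just past the threshold and fell short of it without VCaP-T replicate 1 and without VCaP-CT replicate 3 (0.97 each). ARLNC1, an androgen-induced RNA that was not on that list, averaged 32.3 ± 0.76 in VCaP-CT and 142 ± 15.7 in VCaP-T (SD, n = 3 each). ARLNC1 was higher in VCaP-CT with the media exchanged (log2 fold change 0.99).

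With the media exchanged, the genes that were lower in VCaP-CT kept their sign more often than those that were higher. Of the 1353 genes called lower in maintenance media, 955 (70.6%) were lower in VCaP-CT at 10 nM T than in VCaP-T at 0.1 nM T at an adjusted p under 0.01 (edgeR), 96 (7.1%) were higher and 302 (22.3%) passed in neither direction. Of the 1075 genes called higher, 379 (35.3%) were higher again, 178 (16.6%) were lower and 518 (48.2%) passed in neither direction. Over all genes tested, 26.1% had the same sign and 10.6% the opposite sign at that threshold. Without replicate 2 of VCaP-T at 0.1 nM T, 1582 of 2645 genes had the same sign, 345 the opposite sign and 718 neither. The exchanged comparison itself leaned to falls in VCaP-CT, so the 70.6% and 35.3% have no matching baseline by direction here. It called 3131 genes (16.3%), 885 higher (4.62%) and 2246 lower (11.7%) in VCaP-CT, and 3241 without that library. The 2 differences between lines differed from each other in 4234 genes (22.1%).

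**Figure D4:**
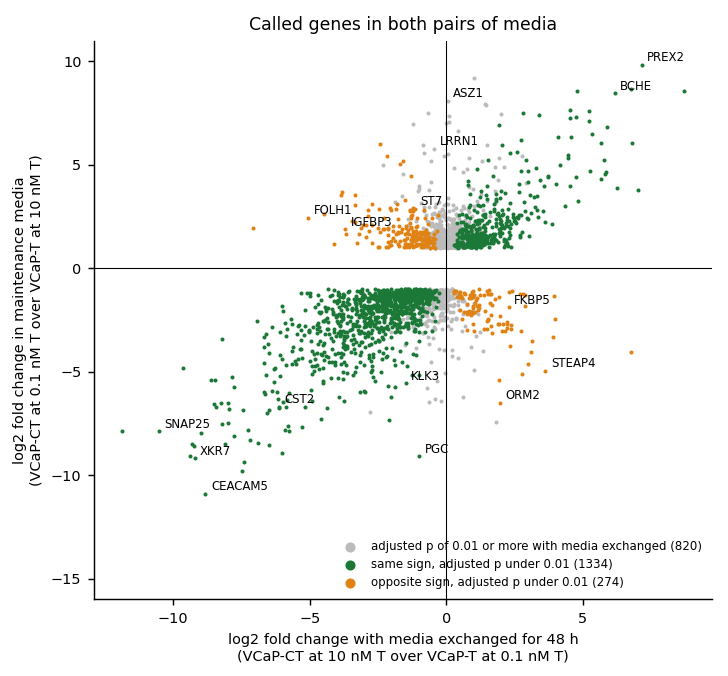
Log2 fold change between the lines in maintenance media (y axis, VCaP-CT at 0.1 nM T over VCaP-T at 10 nM T) against the same with the media exchanged for 48 h (x axis, VCaP-CT at 10 nM T over VCaP-T at 0.1 nM T), for the 2428 genes called in maintenance media. Green points have the same sign at an adjusted p under 0.01 (1334), orange the opposite sign (274) and gray neither (820); no library is shared between the axes.

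Of the genes named above, CEACAM5, CEACAM6, CHGB, SNAP25, CST2, HPGD, PREX2 and BCHE were on the same side in both pairs of media. STEAP4, TMPRSS2, FKBP5, FOLH1, IGFBP3, LUM and ALB changed sides, and ASZ1 and LRRN1 passed in neither direction with the media exchanged. SNAI2 also passed in neither, but without replicate 2 of VCaP-T at 0.1 nM T it kept its side. These genes were chosen for description after their values were known.

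Differences between the lines also followed position along the genome. The median log2 fold change was 0.51 over the 226 tested genes of chromosome 21, of which 35 were called higher (15.5%) and 12 lower, and it was between 0.34 and 0.69 in each of that chromosome's 8 windows of 50 consecutive tested genes. On chromosome 17 the median over 1088 genes was -0.24, with 17 called higher and 100 lower (9.19%), and on chromosomes 4 and X it was 0.27 and 0.28. Of 730 windows in all, which overlap by 25 genes, 16 had a median over 0.5 and 10 a median below -0.5, and the 26 had the same sign with the media exchanged.

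The highest window lay on chromosome 5 from 140841187 to 141682221, which holds the protocadherin run, with a median log2 fold change of 0.85, 18 of 50 genes called higher and 2 lower, and a median of 0.31 with the media exchanged. The lowest window lay on chromosome 19 from 49877425 to 51712387, which holds the kallikrein cluster with KLK3, NUP62 and ATF5. Its median log2 fold change was -1.19, with 20 of 50 genes called lower and 0 higher, and -1.36 with the media exchanged. NUP62, a nuclear pore protein, averaged 4046 ± 155 in VCaP-CT and 29191 ± 1102 in VCaP-T (SD, n = 3 each), with 21.1% of its exon length shared with other genes. Further along the same arm, the window from 56643145 to 57935393 had a median of 0.63, and 0.79 with the media exchanged. Low windows also lay on chromosome 18 from 2655738 to 12068417 (median -0.63) and on chromosome 8 from 33370824 to 42332653 (-0.67), and other high ones on chromosome 18 from 26225936 to 36780055 (0.61) and chromosome 4 from 56393362 to 75050115 (0.63).

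**Figure D5:**
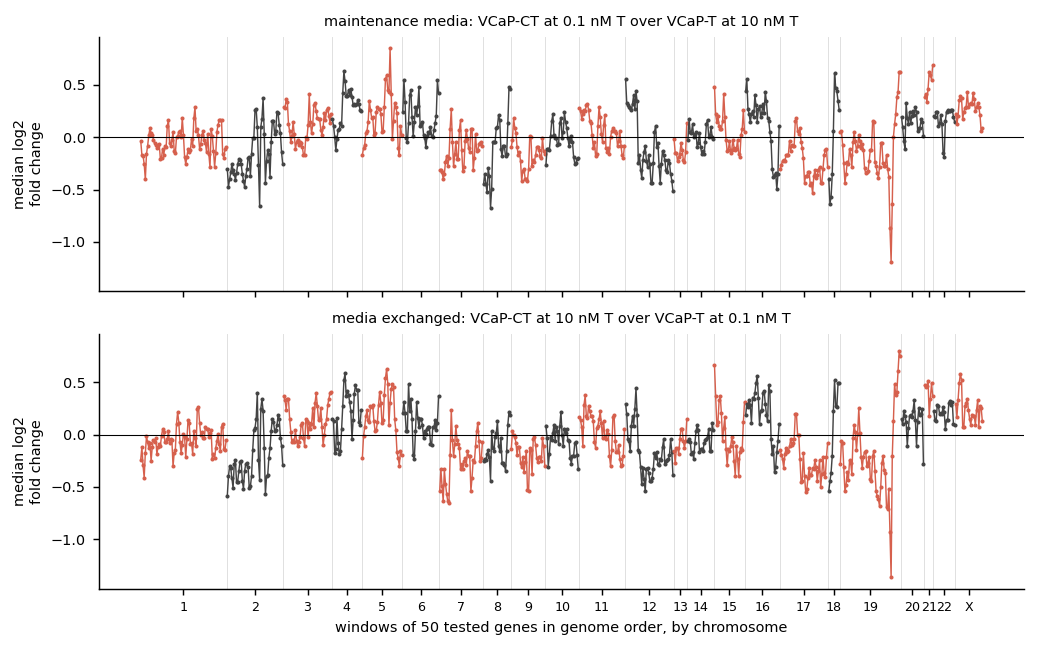
Median log2 fold change in windows of 50 consecutive tested genes (y axis) in genome order by chromosome (x axis), for maintenance media (top) and exchanged media (bottom). The lowest window of chromosome 19 stands at -1.19 and -1.36, and chromosome 21 lies above 0 in maintenance media throughout.

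Called genes formed 32 runs of at least 4 neighbors that moved the same way, of which 18 runs rose and 14 fell. Without 1 of the 6 libraries, 25 to 29 of these runs still held 4 called neighbors in a row. The longest held 15 genes on chromosome 22 (32043032 to 32384343), among them the glucose transporter genes SLC5A1 and SLC5A4. All 15 were lower in VCaP-CT, with a median log2 fold change of -2.89. Up to 43.1% of an exon length in this run is shared with another gene, and strand was not used in counting. With the media exchanged the median of this run was 1.62, and 9 of its genes were higher and 1 lower in VCaP-CT at an adjusted p under 0.01 (edgeR). SLC5A4 averaged 19.9 ± 1.71 normalized counts in VCaP-CT at 0.1 nM T and 148 ± 11.6 in VCaP-T at 10 nM T (SD, n = 3 each). A run of 12 genes on chromosome 2 (130356007 to 130836994), which holds near-identical POTE copies and AMER3, an inhibitor of WNT signaling, fell with a median of -3.17, and 11 of the 12 were lower with the media exchanged too. Without any 1 of the 6 libraries, 8 to 10 of the 12 were still called, and the longest unbroken stretch was 5 genes. Up to 73.8% of an exon length in this run is shared with another gene. AMER3 had 1.71, 4.73 and 5.01 in VCaP-CT libraries, against 1023, 937 and 876 in VCaP-T libraries.

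A run of 8 genes on chromosome 7 (116952446 to 117874139) rose, with ST7, its antisense and overlapping transcripts, WNT2, ASZ1, the chloride channel gene CFTR and CTTNBP2. ST7, a membrane protein proposed as a tumor suppressor, had 13468, 13808 and 13700 normalized counts in the VCaP-CT libraries, against 1798, 1831 and 1995 in the VCaP-T libraries (log2 fold change 2.86, SE 0.08, adjusted p = 2.37e-10, edgeR). Strand was not used in counting and 22.0% of its exon length is shared, so its counts cannot be told apart from those of its antisense genes in the shared part. In exchanged media, 6 of the 8 genes were lower in VCaP-CT, ST7 by 1.16 and WNT2 by 4.47 on the log2 scale. A run of 8 genes on chromosome 6 (46549580 to 47042363), with TDRD6 and MEP1A, rose too, and 5 of them were lower with the media exchanged.

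Other runs kept their direction with the media exchanged. On chromosome 15 (20642799 to 21295201), 7 noncoding genes and pseudogenes rose, 7 of 7 in both pairs of media, and NBEAP1 averaged 1225 ± 28.4 in VCaP-CT and 52.4 ± 3.21 in VCaP-T (SD, n = 3 each). The cystatin run on chromosome 20 (23685640 to 23879750) and the AKR1C run on chromosome 10 (4786629 to 5107686) each fell in 4 of 4 genes in both pairs of media. On chromosome 12 (12355406 to 12722371), 6 genes around CDKN1B rose, and 5 were higher with the media exchanged. On chromosome 8 (67422038 to 68819022), CPA6, a carboxypeptidase, PREX2 and C8orf34 rose with 2 noncoding neighbors, CPA6 with 1082 ± 53.9 in VCaP-CT and 6.28 ± 2.96 in VCaP-T (SD, n = 3 each), and 4 of these 5 genes were higher with the media exchanged.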

How the data were processed

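Poly(A) RNA of 12 libraries was sequenced by the authors as 75 bp paired ends, aligned to GRCh38 with STAR 2.5.4b and counted with featureCounts 1.6.2 on the genes of Gencode release 28. The deposited values used are whole-number counts per gene (58381 genes), for which strand was ignored. Fragments assigned to more than 1 gene or mapped to more than 1 place were left out, which lowers overlapping genes and close copies. The authors' normalized table (19742 genes), counts divided by 1 factor per library, was not used.

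Counts were fitted with edgeR 4.0.16 in R 4.3.3 (quasi-likelihood test, TMM, default filter on low counts, 4 groups in 1 model), with Benjamini-Hochberg adjustment over the 19162 genes tested. The thresholds on adjusted p, fold and medians follow the study's methods. The test was checked on simulated counts. Symbols from Gencode release 44 matched 57799 IDs.

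Members and the 47 gene lists were chosen with earlier results of these data known. Genes named were the 10 called with the largest change in each direction among those over 100 normalized counts, the 5 most abundant in each direction, genes of runs, up to 4 called genes per list and direction, and defining members of lists. Others were chosen after their values were seen. Lists were described by counts and medians only. Promoter sequences are those of RefSeq (GRCh38.p14). They matched 62.9% of the tested genes. The half-site was in 10.7% of the promoters of genes called higher and 11.4% of those called lower, beside 9.46% of all tested. These shares were not tested, and no conclusion is drawn from them. Alternatives were RLE scaling, DESeq2 1.42.0, no low-count filter, the fit of each comparison on its own 6 libraries, a replicate block, leaving out each library, a 4-fold threshold and no threshold on medians. A few genes are not reported here.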

Additional observations from a re-analysis of the deposited data

How the results depend on the processing

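The number of genes called in maintenance media moved little with RLE scaling (2425), DESeq2 (2510), no low-count filter (2529), no threshold on medians (2605) or a fit on the 6 libraries alone (2638), and 2417, 2408, 2408, 2428 and 2390 of the 2428 genes were shared. With a threshold of 4-fold, 931 genes were called (338 higher, 593 lower), and 1214 with the media exchanged (204 higher, 1010 lower). By their sign with the media exchanged, the 931 genes were 615 same, 95 opposite and 221 neither. Fitting the comparisons apart, each on 6 libraries, 178 genes had the opposite sign and 1384 passed in neither direction, against 274 and 820. The cause was not tested.

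Leaving out 1 library gave 2219 to 2645 genes (969 to 1174 higher, 1246 to 1471 lower), 2854 to 3302 with the media exchanged (823 to 1055 higher, 2031 to 2384 lower), and 1214 to 1582 of the same sign, 228 to 345 opposite and 707 to 982 neither. Of the 397 named genes, 35 lost their call without at least 1 library and none changed sign in the alternatives run. The replicate number as a block gave 2367 genes (1037 higher, 1330 lower). Deviations of same-numbered libraries correlated at 0.025, -0.011 and 0.026 between the lines in maintenance media and at -0.157, -0.145 and 0.023 in exchanged media. These values show no clear effect shared by same-numbered libraries. They cannot show whether such libraries were prepared together, which the labels do not say.

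Depth limits the genes near 0: a level of 0 in a library means that no fragment was counted. Folds against a group without counts are lower bounds that assume 3 counts per library, and folds against a few counts have wide counting intervals.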
